A study of Rattus norvegicus with 4 samples.

Results

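Receptors for neuropeptides and for hormones of feeding were followed across cell classes of the rat ventral tegmental area, the midbrain region that holds the dopamine neurons of the reward system. The 10 genes were Ntsr1, Ntsr2, Tacr3, Npsr1, Hcrtr1, Hcrtr2, Crhr1, Calcr, Mc4r and Insr, of 32883 genes in the deposited tables. They were chosen by symbol, and each symbol matched 1 feature. The tissue came from Sprague-Dawley rats of 90 to 120 days that had taken part in no experiment. Nuclei were sorted and sequenced in 4 droplet libraries, called female 1, female 2, male 1 and male 2, each pooled from 3 animals of 1 sex, 6 rats per sex in all. A library was therefore the replicate, and what single animals contributed cannot be told apart.

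Peptide receptors of this kind are mostly receptors coupled to G proteins on the cell surface. The orexin, neurokinin and neurotensin receptors act largely through Gq and phospholipase C, whereas those for melanocortin, calcitonin and corticotropin releasing hormone act largely through Gs and cyclic AMP. The insulin receptor is instead a tyrosine kinase. In the midbrain, orexin, neurotensin, corticotropin releasing hormone and insulin are known to act on dopamine neurons and on the cells around them, and so to tie feeding and arousal to reward.

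The starts of 4 of the genes are shown because the comparisons of neuron classes below turn on these 4. All 10 had an entry in the RefSeq promoter table (build GRCr8), 250 bases before to 50 bases after the start. Capitals mark a TATA box (TATAAA), the core of the cyclic AMP response element (TGACG) or a CCAAT box (CCAAT), each on either strand. Tacr3 is at chr2:225940247-225940546 on the plus strand, Hcrtr2 at chr8:85986356-85986655 on the minus strand, Npsr1 at chr8:30882580-30882879 on the plus strand and Calcr at chr4:32691026-32691325 on the minus strand.
Tacr3: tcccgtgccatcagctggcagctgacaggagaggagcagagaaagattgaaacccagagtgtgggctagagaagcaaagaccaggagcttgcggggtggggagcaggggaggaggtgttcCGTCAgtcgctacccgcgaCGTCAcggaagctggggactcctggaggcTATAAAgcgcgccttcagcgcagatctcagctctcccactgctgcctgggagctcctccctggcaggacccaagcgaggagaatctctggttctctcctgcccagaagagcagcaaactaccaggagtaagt
Hcrtr2: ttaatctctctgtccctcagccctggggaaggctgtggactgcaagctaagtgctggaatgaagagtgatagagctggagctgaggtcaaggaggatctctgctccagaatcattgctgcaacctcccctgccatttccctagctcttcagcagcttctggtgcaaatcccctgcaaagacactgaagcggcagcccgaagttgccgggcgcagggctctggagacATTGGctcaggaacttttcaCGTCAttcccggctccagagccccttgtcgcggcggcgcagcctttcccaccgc
Npsr1: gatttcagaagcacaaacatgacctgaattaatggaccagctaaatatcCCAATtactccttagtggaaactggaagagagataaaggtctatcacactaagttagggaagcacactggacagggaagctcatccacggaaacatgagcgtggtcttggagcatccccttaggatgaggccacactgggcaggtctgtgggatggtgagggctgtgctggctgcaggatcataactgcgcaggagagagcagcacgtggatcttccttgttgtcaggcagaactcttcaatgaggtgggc
Calcr: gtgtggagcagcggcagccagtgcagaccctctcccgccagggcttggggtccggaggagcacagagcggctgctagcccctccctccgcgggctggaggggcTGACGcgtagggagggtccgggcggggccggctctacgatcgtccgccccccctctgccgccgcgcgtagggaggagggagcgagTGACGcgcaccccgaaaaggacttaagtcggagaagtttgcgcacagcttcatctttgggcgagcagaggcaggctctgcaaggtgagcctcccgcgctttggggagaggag
The Tacr3 window held 1 TATA box and 2 core motifs, the Calcr window 2 core motifs, the Hcrtr2 window 1 core motif and 1 CCAAT box, and the Npsr1 window 1 CCAAT box. Over 33469 promoter windows of the same length, 14.2% held the TATA letters, 21.2% the core motif and 37.5% the CCAAT letters. The binding letters of Nr4a2, AAAGGTCA, stood in 1.43% of all windows and in none of the 10. These matches are letters only.

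The libraries held 19714338 to 25824289 UMIs (counted RNA molecules) over 21606 barcodes, of which 20620 were kept as nuclei, with library medians of 2384 to 3861 UMIs per kept nucleus. Pairs of libraries shared 4 to 9 barcodes. Nuclei were sorted into 8 gates by raw UMIs of defining genes. The dopamine gate (Th and Slc6a3) held 306 nuclei, the gate of Slc26a7 with Gad2 83, the GABA gate (Gad1) 1131 and the glutamate gate (Slc17a6 without Gad1) 1527. The oligodendrocyte gate (Mog and Mobp) held 8505, the oligodendrocyte precursor gate (Pdgfra) 1334, the astrocyte gate (Gja1 and Aqp4) 1853 and the microglia gate (Csf1r and C1qa) 924, and 4822 nuclei met no gate. These ungated nuclei held 17.4% of the Ntsr2, 22.5% of the Insr, 30.6% of the Tacr3 and 36.6% of the Hcrtr2 UMIs. Median UMIs were 7501 to 9111.5 in the neuron gates and 1356.5 to 3310 in the glial gates. Markers not used in the gates were highest in the gate they name for 9 of 10 dopamine markers and 5 of 5 in each glial list. Nr4a2 was highest in the Slc26a7-Gad2 gate, where the summed dopamine markers stood at 1238 to 1419.5 CPM (UMIs of a gene scaled to a total of 1000000 UMIs) against 2882 to 3474 in the dopamine gate. The list for glutamate neurons (0 of 5) did not single out its gate. Slc17a7, Slc17a8, Tbr1 and Foxb1 were at or under 10.4 CPM in every gate, and Lmx1a was highest in the Slc26a7-Gad2 gate. Of the GABA markers, Slc32a1 was highest in the Slc26a7-Gad2 gate and Gata3 in the GABA gate. The GABA and glutamate gates are therefore named for the gating gene alone. Of nuclei in more than 1 neuron gate, 17 were in both the dopamine and Slc26a7-Gad2 gates, 19 in the dopamine and glutamate gates and 34 in the Slc26a7-Gad2 and glutamate gates.

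**Figure D1:**
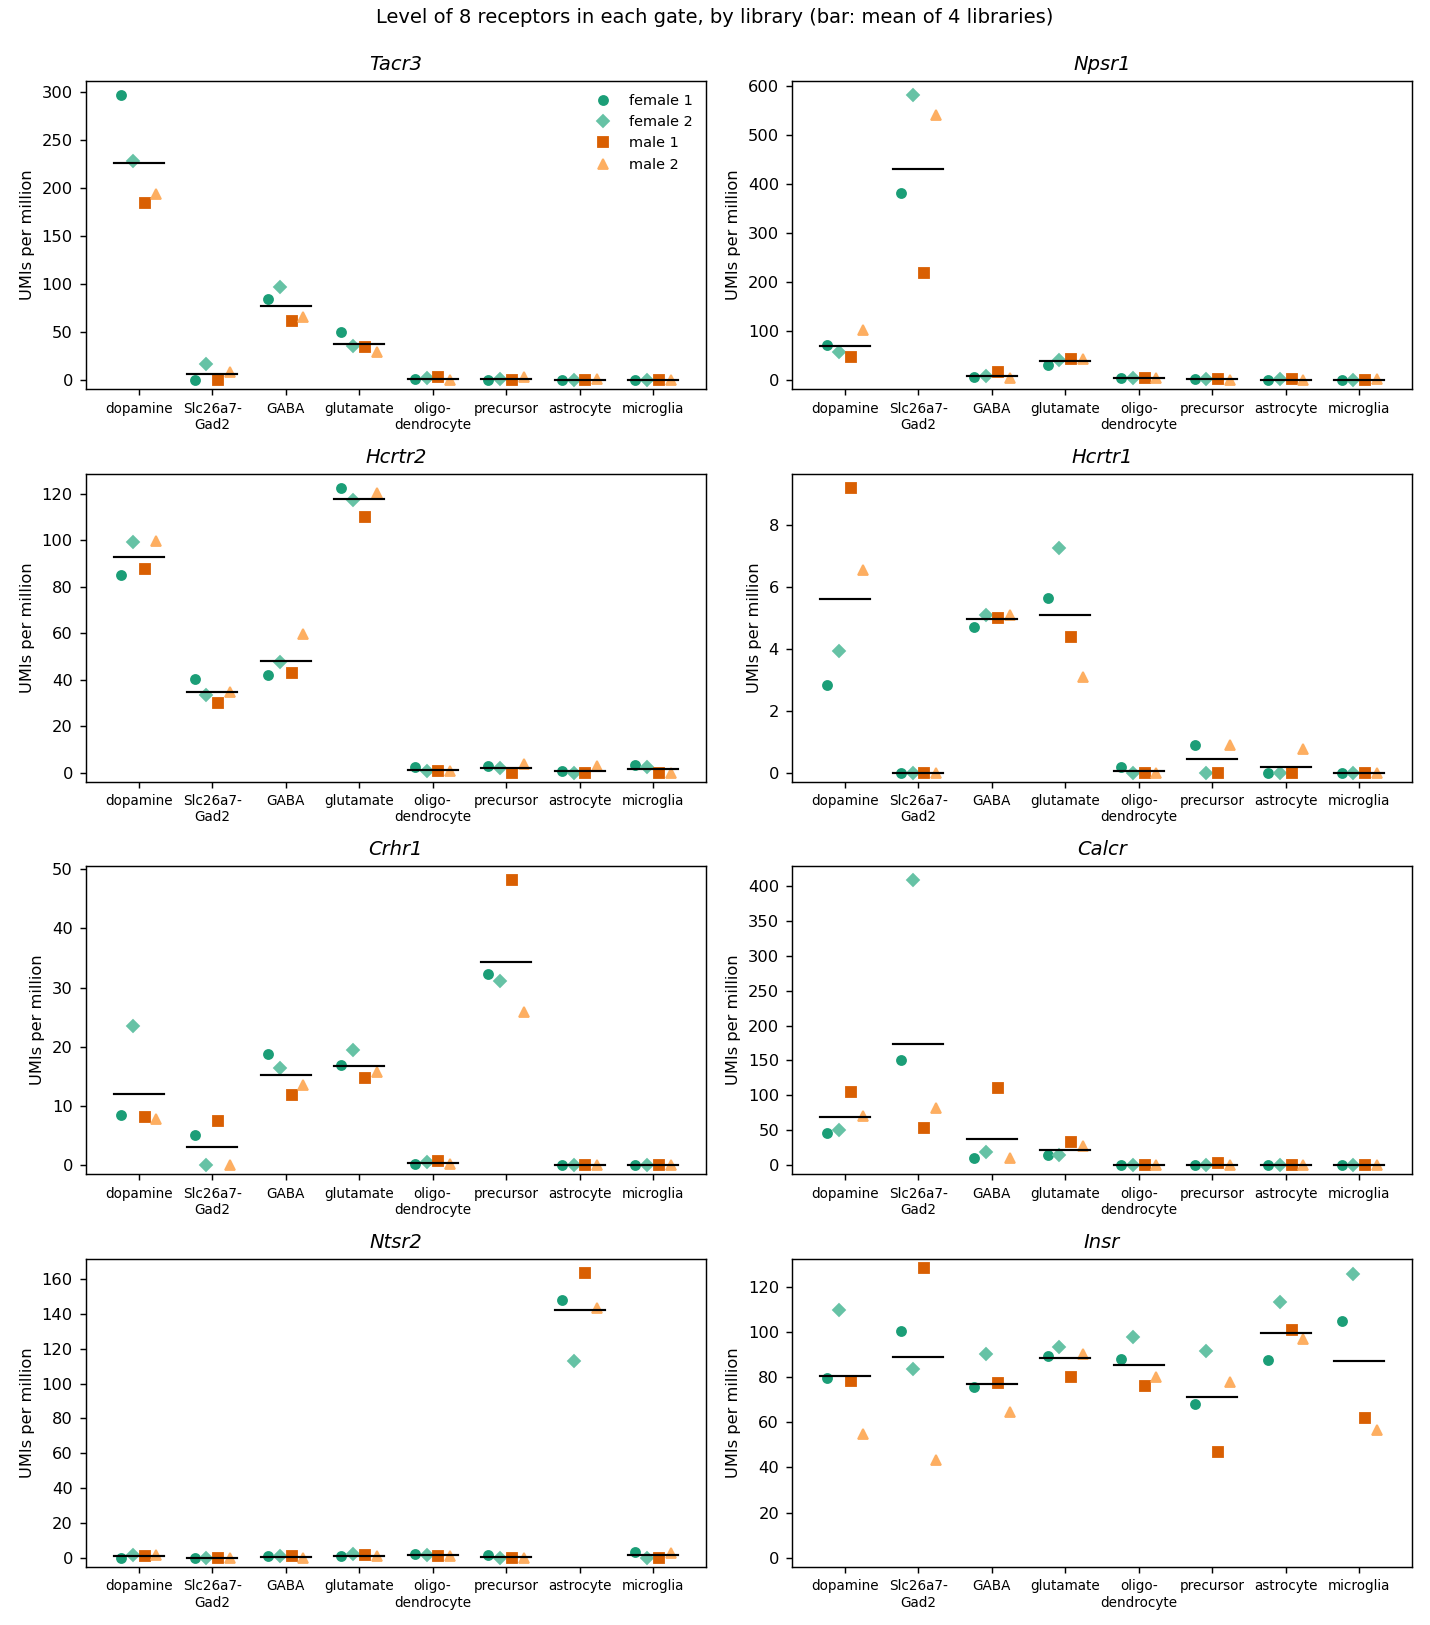
Level of 8 receptors (vertical axis, CPM of the summed nuclei) in the 8 gates (horizontal axis), 1 point per library and a bar at the mean of 4 libraries. Tacr3 stands highest in the dopamine gate in every library (184 to 296), Npsr1 in the Slc26a7-Gad2 gate (219 to 581), Ntsr2 in the astrocyte gate (113 to 163), and Insr lies between 43.3 and 128 in all gates.

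Tacr3, the neurokinin B receptor, was highest in the dopamine gate. Its level there was 296 and 228 CPM in females 1 and 2, and 184 and 194 CPM in males 1 and 2. In the GABA gate it was 84.1, 97.0, 61.8 and 65.5 CPM, and in the glutamate gate 49.6, 35.4, 34.4 and 29.3 CPM, in the same order of libraries. The ranges of the 3 gates did not overlap. In the Slc26a7-Gad2 gate only 5 UMIs were counted in 83 nuclei, and glial levels reached at most 3.11 CPM. Tested with edgeR (quasi-likelihood, p-values adjusted by Benjamini-Hochberg over all genes), Tacr3 was higher in the dopamine than in the GABA gate by 1.58 ± 0.13 (log2 fold change, SE, adjusted p = 1.75e-14). Against the glutamate gate the difference was 2.60 ± 0.14 (adjusted p = 8.69e-22), and the GABA gate exceeded the glutamate gate by 1.02 ± 0.14 (adjusted p = 8.88e-08). Thus each step in the order dopamine, GABA, glutamate, Slc26a7-Gad2 passed the test. With DESeq2 the steps from dopamine to GABA (1.66, adjusted p = 0.0525), from GABA to glutamate (1.01, adjusted p = 0.487) and from glutamate to Slc26a7-Gad2 (-2.53 for Slc26a7-Gad2 minus glutamate, adjusted p = 0.0863) did not pass. The last step was also lost with lower gates (-0.46, adjusted p = 0.486) and without female 1 (-1.98, adjusted p = 0.0564).

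A Tacr3 UMI was found in 184 of 306 dopamine-gate nuclei, 60.2% ± 5.22 of nuclei (mean over libraries, SD, n = 4). To compare gates of unequal depth, each nucleus was thinned to 2000 UMIs, and shallower nuclei were left out. The thinned share was 30.4% ± 4.70 in the dopamine gate, 9.18% ± 1.40 in the GABA gate and 5.77% ± 1.65 in the glutamate gate. In the oligodendrocyte gate, taken as the background of free RNA, it was 0.12% thinned and 0.181% unthinned, at a median of 2401 UMIs against 9111.5. All 4 libraries lay above that background in all 3 neuron gates, and an exact sign-flip test over 4 libraries cannot go below p = 0.13. Positive nuclei of the dopamine gate held 3.76 Tacr3 UMIs on average and up to 25. Just outside the gate Tacr3 was lower. Among nuclei with 1 UMI as the lower of Th and Slc6a3, outside the glial gates, 22.9% of 96 had Tacr3 (97.0 CPM). Inside the gate it was 52.8% of 72 (240 CPM) with 2 UMIs and 62.4% of 234 (219 CPM) with 3 or more. Median UMIs of these groups were 6187.5, 6758.5 and 9803.5.

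Npsr1, the receptor of the arousal peptide neuropeptide S, had its highest level in the Slc26a7-Gad2 gate. It stood there at 381 and 581 CPM in females 1 and 2, and at 219 and 541 CPM in males 1 and 2, where male 1 had 11 nuclei in the gate. In the dopamine gate it was 70.9, 57.4, 46.0 and 102 CPM, in the glutamate gate 29.6, 41.7, 41.8 and 43.4 CPM, and in the GABA gate 5.55, 9.03, 16.4 and 4.52 CPM. The Slc26a7-Gad2 range lay above all others, and the GABA gate below the other 3 neuron gates. The Slc26a7-Gad2 gate exceeded the dopamine gate by 2.54 ± 0.20 (coded as dopamine minus Slc26a7-Gad2, edgeR log2 fold change -2.54, adjusted p = 2.84e-15). It exceeded the GABA gate by 5.41 ± 0.23 (adjusted p = 2.73e-26) and the glutamate gate by 3.37 ± 0.18 (adjusted p = 2.79e-21). The dopamine gate in turn exceeded the glutamate gate by 0.82 ± 0.19 (adjusted p = 0.000780), which became 0.62 (adjusted p = 0.0621) without male 2. Per nucleus, 32 of 83 Slc26a7-Gad2 nuclei had Npsr1, and these held 10.4 UMIs each on average. The thinned share was 28.7% ± 4.47 (39.3% unthinned), against 8.88% ± 2.93 in the dopamine gate and 3.30% ± 0.67 in the glutamate gate.

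Npsr1 was concentrated in few nuclei and was also counted in the oligodendrocyte gate. The 20 nuclei with most UMIs held 30.3% of its 1900 UMIs, and a single glutamate-gate nucleus held 75. In the oligodendrocyte gate 95 of 8505 nuclei had 108 Npsr1 UMIs, at most 3 each, with 4.06 to 4.98 CPM over the libraries. The GABA gate (thinned share 1.21%) was above that gate (0.906%) in 2 of 4 libraries, so Npsr1 was too low to judge there by share. By level, GABA minus oligodendrocyte was 0.67 ± 0.30 (edgeR log2 fold change, adjusted p = 0.0423). Npsr1 counted 4.50 UMIs for each Hcrtr2 UMI in the oligodendrocyte gate and 0.494 in the neuron gates. By library the ratio was 1.83 to 8.25 against 0.406 to 0.578. The oligodendrocyte gate held only 24 Hcrtr2 UMIs, 4 to 12 per library, so its ratios are coarse. For Tacr3 the ratio was 1.33 (0.25 to 3.75 by library) against 0.816, and for Calcr 0.292 against 0.451. The source of the Npsr1 UMIs in the oligodendrocyte gate was not tested.

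Hcrtr2, the orexin receptor that binds both orexins, was found in all 4 neuron gates. Its level in the glutamate gate was 123 and 117 CPM in females 1 and 2 and 109.9 and 121 CPM in males 1 and 2, and in the dopamine gate 85.1, 99.2, 87.5 and 99.6 CPM in the same order. The ranges did not overlap, but the difference of -0.31 ± 0.12 (dopamine minus glutamate, edgeR log2 fold change) missed the threshold at an adjusted p of 0.0640. It passed with no filter on low counts, with doublet calls kept, with lower gates, without nuclei of more than 1 neuron gate and with library totals as the only scaling (adjusted p = 0.0209 to 0.0466). The GABA gate was at 41.8 to 59.9 CPM and the Slc26a7-Gad2 gate at 30.2 to 40.1 CPM, ranges that did not overlap but differed by -0.56 ± 0.31 (Slc26a7-Gad2 minus GABA, adjusted p = 0.336). The dopamine gate exceeded the GABA gate by 1.01 ± 0.14 (adjusted p = 5.42e-08) and the Slc26a7-Gad2 gate by 1.57 ± 0.29 (adjusted p = 4.34e-05). The order therefore fell into an upper pair, glutamate and dopamine, and a lower pair, GABA and Slc26a7-Gad2. Thinned shares were 17.4% ± 0.96 in the glutamate gate (40.7% unthinned), 14.5% ± 1.29 in the dopamine gate (36.3%), 6.73% ± 0.82 in the GABA gate, 6.41% ± 1.04 in the Slc26a7-Gad2 gate and 0.133% in the oligodendrocyte gate.

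Hcrtr1, the other orexin receptor, was sparse, with 210 UMIs in all kept nuclei. It was at 2.84 to 9.21 CPM in the dopamine gate, 4.69 to 5.11 in the GABA gate and 3.09 to 7.27 in the glutamate gate, and these ranges overlapped. None of the differences between the 3 gates passed the edgeR test (adjusted p = 0.745 to 1). Its thinned shares of 1.32%, 1.00% and 1.05% were above the oligodendrocyte gate in all 4 libraries. In the Slc26a7-Gad2 gate it was seen in 0 of 83 nuclei, which allows a share of up to 3.61%.

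Calcr, the calcitonin receptor, which with Ramp proteins also binds amylin, was highest in the Slc26a7-Gad2 gate but uneven between libraries. It was at 150.4 and 408 CPM in females 1 and 2 there, at 52.8 and 82.3 CPM in males 1 and 2, and at 46.8, 50.9, 105 and 70.8 CPM in the dopamine gate. In the glutamate gate it was 15.2, 14.1, 32.6 and 27.0 CPM. The GABA gate read 10.2, 18.5 and 9.60 CPM in female 1, female 2 and male 2, but 111 CPM in male 1. That library gave 311 of the 399 Calcr UMIs of the GABA gate, in 32 of its 306 nuclei. The dopamine gate lay above the glutamate gate in every library, by 1.58 ± 0.34 (edgeR log2 fold change, adjusted p = 0.000308). Without any 1 library this difference stayed called, at 1.51 to 1.69, whereas DESeq2 gave 1.64 with an adjusted p of 0.106.

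Calcr differences that involve the GABA gate depended on male 1. Dopamine minus GABA was 0.98 ± 0.33 (edgeR adjusted p = 0.0225) with all libraries and 2.15 (adjusted p = 2.05e-07) without male 1. It was 0.90 (adjusted p = 0.101) without female 1 and 0.74 (adjusted p = 0.146) without male 2, and the call was also lost with DESeq2, with lower gates, without nuclei of more than 1 neuron gate and without the library block (adjusted p = 0.0966 to 0.218). GABA minus glutamate was 0.60 ± 0.30 (adjusted p = 0.238), was called with lower gates (0.83, adjusted p = 0.0416) and with no filter on low counts, and turned to -0.64 (adjusted p = 0.232) without male 1. Isl1, a transcription factor gene looked up after the Calcr values were seen, was detected in 83 GABA-gate nuclei, 60 of them in male 1. Of the 32 Calcr nuclei of male 1, 16 had Isl1, and they held 148 of the 311 UMIs. Nuclei that met no gate repeated the difference, at 91.7 CPM in male 1 and 14.1 to 23.3 in the other libraries. The part of the Isl1 nuclei in the Calcr level of male 1 was not tested.

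In the Slc26a7-Gad2 gate female 2 was the highest library for Calcr. Slc26a7-Gad2 minus GABA was 2.32 ± 0.41 (edgeR adjusted p = 2.94e-05), 1.30 (adjusted p = 0.0846) without female 2 and 3.84 (adjusted p = 4.22e-14) without male 1. Dopamine minus Slc26a7-Gad2 was -1.34 ± 0.41 (adjusted p = 0.0210), -0.43 (adjusted p = 0.694) without female 2 and -1.26 (adjusted p = 0.0894) without female 1. It was not called with lower gates (-0.73, adjusted p = 0.259), DESeq2 (-1.39, adjusted p = 0.249) or without the library block (-1.19, adjusted p = 0.181). Slc26a7-Gad2 minus glutamate was 2.93 ± 0.43 (adjusted p = 8.01e-07) and stayed called without female 2 (1.99, adjusted p = 0.00386). Thinned shares were 18.6% ± 11.2 in the Slc26a7-Gad2 gate, 7.56% ± 2.75 in the dopamine gate, 3.04% ± 3.13 in the GABA gate and 1.91% ± 0.95 in the glutamate gate. Like Npsr1, Calcr was concentrated, with 27.5% of its 1708 UMIs in 20 nuclei.

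Crhr1, the main brain receptor of corticotropin releasing hormone, was highest in oligodendrocyte precursors. It stood at 32.2 and 31.2 CPM in females 1 and 2 and at 48.1 and 25.9 CPM in males 1 and 2, above every neuron-gate value. The precursor gate exceeded the glutamate gate by 1.15 ± 0.21 (coded as glutamate minus precursor, edgeR log2 fold change -1.15, adjusted p = 7.48e-06). It exceeded the GABA gate (-1.32 ± 0.22 for GABA minus precursor, adjusted p = 1.85e-06) and the dopamine gate (-1.61 ± 0.29 for dopamine minus precursor, adjusted p = 6.93e-06). The precursor nuclei were shallower than the neuron nuclei, at a median of 2796.5 UMIs, and the thinned share was 6.14% ± 1.44 against 3.11% ± 0.51 in the glutamate gate and 2.79% ± 0.60 in the GABA gate. Unthinned the order was the reverse, at 9.14% in precursors, 12.6% in the glutamate gate and 10.7% in the GABA gate.

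Among the other glia Crhr1 was near or at 0. Oligodendrocytes had 9 UMIs in 8505 nuclei. Astrocytes had a UMI in 0 of 1853 nuclei, which allows a share of up to 0.162%, and microglia were at 0 as well. Against the level that 3 UMIs over the whole gate would give, precursors were at least 75.0-fold higher than astrocytes and at least 15.5-fold higher than microglia. In neurons Crhr1 was at 11.8 to 18.8 CPM in the GABA gate and 14.8 to 19.4 in the glutamate gate, which did not differ beyond their spread (-0.17 ± 0.21, adjusted p = 0.729). The dopamine gate was at 8.51, 23.5, 8.06 and 7.86 CPM in female 1, female 2, male 1 and male 2. Female 2 stood apart, with 18 of 37 UMIs. Only 2 UMIs fell in the Slc26a7-Gad2 gate, below the GABA gate by 2.54 ± 0.80 (Slc26a7-Gad2 minus GABA, -2.54, adjusted p = 0.0368). That call was lost in 7 of the alternatives, among them lower gates (-0.93, adjusted p = 0.274) and DESeq2 (adjusted p = 0.151). The difference from the glutamate gate was lost in 4 of them.

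Few UMIs of the neurotensin receptors were counted in the neuron gates. Ntsr2 was an astrocyte gene, at 148 and 113 CPM in females 1 and 2 and 163 and 144 CPM in males 1 and 2, with a UMI in 712 of 1853 nuclei. In the other 7 gates no library exceeded 3.08 CPM, so the groups were far apart. Astrocytes exceeded the mean of the other glial gates by 7.09 ± 0.19 (edgeR log2 fold change, adjusted p = 2.09e-36). The thinned share was 24.6% ± 2.56 (39.0% unthinned), and 0.295% in the oligodendrocyte gate. Ntsr1, the high affinity neurotensin receptor, had 1 UMI in 20620 nuclei, in a precursor. It was seen in 0 of 306 dopamine-gate nuclei, which allows a share of up to 0.980%, in 0 of 1131 GABA-gate nuclei (up to 0.265%) and in 0 of 1527 glutamate-gate nuclei (up to 0.196%). A count of 0 here limits nuclei with a UMI of this 3′ end assay, not nuclei that express the gene, and Ntsr1 was too low to judge in every gate.

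Mc4r, the melanocortin receptor that lowers food intake, was also close to the floor, with 41 UMIs in all kept nuclei. The GABA gate held 18 of them, at 2.56, 1.18, 1.79 and 2.26 CPM in female 1, female 2, male 1 and male 2, and a thinned share of 0.329% ± 0.11 that was above the oligodendrocyte gate in all 4 libraries. The dopamine gate had 0 in 306 nuclei, and the GABA level was at least 1.97-fold above the level that 3 UMIs would give there. Mc4r could be judged in the GABA gate only. The gate fit left out Ntsr1 and Mc4r for their low counts, so 8 of the 10 receptors were tested.

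Insr, the insulin receptor, was the one receptor spread over all gates. Means ran from 71.1 CPM in precursors to 99.7 in astrocytes, with dopamine at 80.6, Slc26a7-Gad2 at 88.9, GABA at 76.9 and glutamate at 88.4 CPM. No difference between neuron gates passed the edgeR test (adjusted p = 0.223 to 0.996). Astrocytes, at 87.5 to 113 CPM, exceeded the mean of the other glial gates by 0.35 ± 0.11 (adjusted p = 0.00547), a call lost without the library block (0.34, adjusted p = 0.0581). The dopamine gate was below the astrocytes (-0.55 ± 0.14 for dopamine minus astrocyte, adjusted p = 0.000889) and the oligodendrocytes (-0.44 ± 0.13, adjusted p = 0.00284). The mean of the neuron gates was below that of the glial gates by 0.30 ± 0.09 (-0.30, adjusted p = 0.00189) after TMM scaling, but by 0.05 (-0.05, adjusted p = 0.648) with library totals as the only scaling. That scaling moved the median of all genes in this comparison from 0.02 to 0.27, and it took the calls from 5102 higher and 4517 lower to 6409 and 3200. Relative to the median of all genes Insr was thus lower in neurons, while in CPM the classes were nearly level. Thinned shares were 13.3% to 18.3% in all gates. The oligodendrocyte gate carries Insr itself (14.8%), so it gave no background for this gene.

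Counted over the 8 tested receptors, the dopamine gate exceeded the GABA gate for 4 (Tacr3, Npsr1, Hcrtr2 and Calcr) and fell below it for 0, where edgeR called 25% of all genes (11.2% higher, 13.8% lower). Against the glutamate gate it was higher for 3 (Tacr3, Npsr1 and Calcr) and lower for 0, with 21% of all genes called (9.14% higher, 11.9% lower). Dopamine minus Slc26a7-Gad2 gave 2 higher (Tacr3 by 5.19 ± 0.42 and Hcrtr2) and 2 lower (Npsr1 and Calcr), with 12.3% of all genes called (8.02% higher, 4.26% lower). Slc26a7-Gad2 minus GABA gave 2 higher (Npsr1 and Calcr) and 2 lower (Tacr3 by -3.61 ± 0.52 and Crhr1), with 8.39% called (2.41% higher, 5.98% lower). Slc26a7-Gad2 minus glutamate gave 2 higher (Npsr1 and Calcr) and 3 lower (Tacr3 by -2.59 ± 0.60, Hcrtr2 by -1.88 ± 0.26 and Crhr1 by -2.70 ± 0.78), with 7.78% called (1.96% higher, 5.82% lower). GABA minus glutamate gave 1 higher (Tacr3) and 2 lower (Npsr1 by -2.05 ± 0.22 and Hcrtr2 by -1.32 ± 0.11), with 11.1% called (5.18% higher, 5.94% lower).

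The comparisons with the Slc26a7-Gad2 gate depend on the scaling for genes in general. Calls for dopamine minus Slc26a7-Gad2 were 1173 higher and 623 lower, and 832 and 820 with library totals alone. For Slc26a7-Gad2 minus GABA they were 352 and 874, and 428 and 630 with library totals. For Slc26a7-Gad2 minus glutamate they were 286 and 851, and 376 and 570. That scaling moved the median of all genes in these 3 comparisons from 0.14 to 0.01, from -0.19 to -0.09 and from -0.20 to -0.08. DESeq2 gave 543 higher and 498 lower for Slc26a7-Gad2 minus GABA and 466 and 463 for Slc26a7-Gad2 minus glutamate. The receptors called in these comparisons kept their direction in both.

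The mean of the 4 neuron gates against the mean of the 4 glial gates gave 5 receptors higher (Tacr3, Npsr1, Hcrtr2, Crhr1 and Calcr) and 2 lower (Ntsr2 and Insr), where 65.8% of all genes were called (34.9% higher, 30.9% lower). Hcrtr1 could not be fitted there because gates were at 0. The Crhr1 value of 4.03 ± 0.79 averages log2 levels over astrocytes and microglia, which had no Crhr1 UMI, while precursors stood above every neuron gate. Astrocytes against the other glia gave 2 higher (Ntsr2 and Insr), with 51.6% called (29.5% higher, 22.1% lower).

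**Figure D2:**
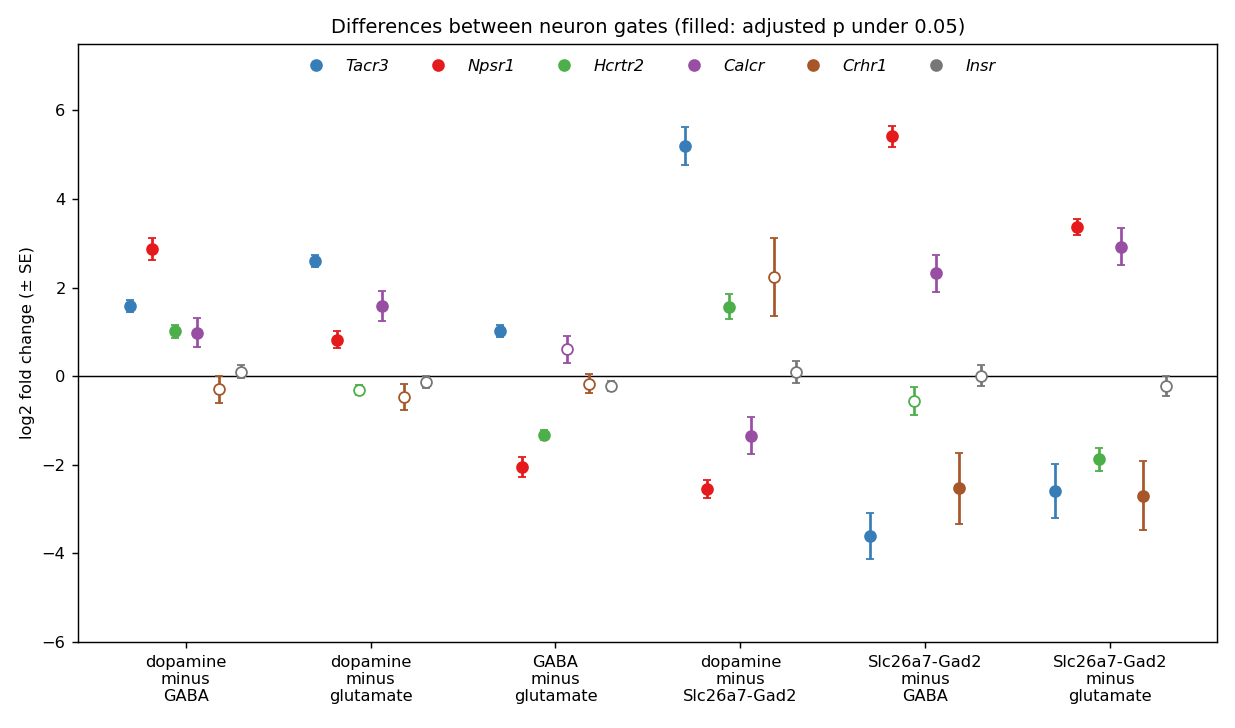
Log2 fold changes (vertical axis, points with SE bars from the edgeR fit of 4 libraries) of 6 receptors in 6 comparisons of neuron gates (horizontal axis), filled where the adjusted p was under 0.05. Npsr1 is at 5.41 and Tacr3 at -3.61 in Slc26a7-Gad2 minus GABA, and Insr lies near 0 in each comparison.

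Within the dopamine gate the receptors differed in how often they were found with Aldh1a1. Aldh1a1, which encodes an aldehyde dehydrogenase and marks a ventral group of dopamine neurons, was detected in 123 of the 306 nuclei. Median UMIs were 9616 in nuclei with it and 8791 in those without. With Aldh1a1, Hcrtr2 had a thinned share of 21.9% and 25.0% in females 1 and 2 and 23.0% and 29.9% in males 1 and 2, against 7.75%, 8.61%, 5.95% and 7.15% without. The lowest value with Aldh1a1 was above the highest without. Tacr3 was at 36.7% ± 7.47 with and 26.3% ± 3.83 without, higher with Aldh1a1 in every library.

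In that gate Calcr, Npsr1 and Crhr1 went the other way. Calcr was at 0% in 3 libraries and 3.58% in male 1 with Aldh1a1, against 8.92%, 8.39%, 18.0% and 13.6% without. Npsr1 was at 3.82% ± 2.43 with and 12.4% ± 3.40 without, and Crhr1 at 0.732% ± 0.79 and 2.73% ± 1.72. Each was lower with Aldh1a1 in all 4 libraries, and the smallest p of an exact sign-flip test with 4 libraries is 0.13. By the order of gates, up to 17 nuclei of the dopamine gate also met the Slc26a7-Gad2 gate. Aldh1a1 was at 40.9 CPM in the Slc26a7-Gad2 gate against 361 in the dopamine gate. The part of the shared nuclei in these splits was not tested. Unthinned, 74 of 111 Hcrtr2 nuclei had Aldh1a1, but 2 of 38 Calcr nuclei and 13 of 61 Npsr1 nuclei did. Nuclei with Sox6, a transcription factor gene, had Hcrtr2 less (6.42% ± 3.96 against 16.7% ± 1.94), again in 4 of 4 libraries.

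Overlap between receptors in these nuclei was uneven, in splits added after the Aldh1a1 values were seen. Of all 306 nuclei of the gate 184 had a Tacr3 UMI and 111 an Hcrtr2 UMI. Of the 111 Hcrtr2 nuclei 78 had a Tacr3 UMI. Of the 61 Npsr1 nuclei 37 had one, a share close to that of the whole gate. Of the 38 Calcr nuclei of the dopamine gate, 1 had an Hcrtr2 UMI and 10 had a Tacr3 UMI. The thinned Calcr share was 0%, 0%, 0% and 1.62% in female 1, female 2, male 1 and male 2 among Hcrtr2 nuclei, and 8.73%, 8.22%, 17.8% and 12.0% among nuclei without Hcrtr2. It was 3.19% ± 3.49 among Tacr3 nuclei and 14.1% ± 4.35 among those without.

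**Figure D3:**
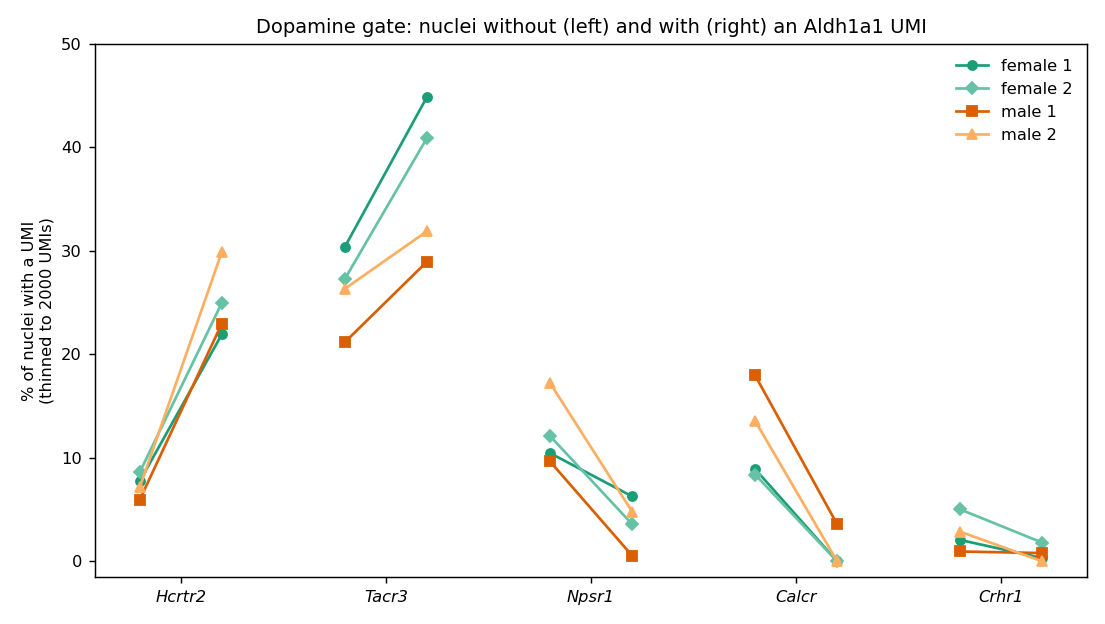
Share of dopamine-gate nuclei with a UMI of 5 receptors (vertical axis, percent, each nucleus thinned to 2000 UMIs) without (left end of each line) and with (right end) an Aldh1a1 UMI, 1 line per library. Hcrtr2 and Tacr3 are higher with Aldh1a1 in all 4 libraries, and Npsr1, Calcr and Crhr1 are lower in all 4.

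The GABA gate was split by other genes. In the 120 nuclei with Lum, which encodes the matrix protein lumican, Tacr3 had a thinned share of 2.19% ± 1.74 against 10.0% ± 1.47 in the others, lower in 4 of 4 libraries. Hcrtr2 was at 0.349% ± 0.70 against 7.5% ± 0.96, and Calcr at 0% in each library against 3.38% ± 3.45. Hcrtr1 went the other way, at 2.09% ± 0.98 against 0.873% ± 0.09. Nuclei with Meis2, a homeobox gene, had less Hcrtr2 (3.93% against 8.31%) and Calcr (0.380% against 4.38%) and more Crhr1 (3.90% against 2.10%), each in 4 of 4 libraries. Among nuclei without Meis2, Calcr was at 11.1% in male 1 and 1.77% to 2.84% in the other libraries. Nuclei with Gata3, a gene of midbrain GABA neurons, had more Hcrtr2 (9.46% against 5.98%) and less Crhr1 (1.21% against 3.23%). Tacr3 was found in 3.15% ± 1.82 of GABA-gate nuclei with Hcrtr2 and in 10.4% ± 1.67 of those without, a split added later.

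In the glutamate gate, nuclei with Lmx1a, a transcription factor gene shared with dopamine neurons, had more Hcrtr2 (21.1% ± 3.87 against 14.4% ± 2.01) and less Npsr1 (2.49% against 3.97%). Npsr1 was also lower in nuclei with C1ql1 (0.83% ± 0.43 against 4.44% ± 1.32) and with Th (0.921% against 3.69%). Tacr3 was higher in nuclei with Sim1 (9.08% ± 1.87 against 5.07% ± 1.54). Each of these differences had 1 direction in all 4 libraries, as did 35 of the 73 planned splits over the neuron gates. The smallest reachable p of 0.13 means that none can pass a test by itself.

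Taken per nucleus, 51 of 306 dopamine-gate nuclei had none of Tacr3, Npsr1, Hcrtr2 and Calcr. There were 136 with 1 of them, 99 with 2, 20 with 3 and 0 with all 4. None of the 4 was detected in 25.3% of Slc26a7-Gad2 nuclei, 47.5% of glutamate nuclei and 63.5% of GABA nuclei, at median depths of 7501 to 8273 UMIs. In the oligodendrocyte gate 98.4% had none. These counts are unthinned, so the glial value also reflects its lower depth of 2401 UMIs.

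**Figure D4:**
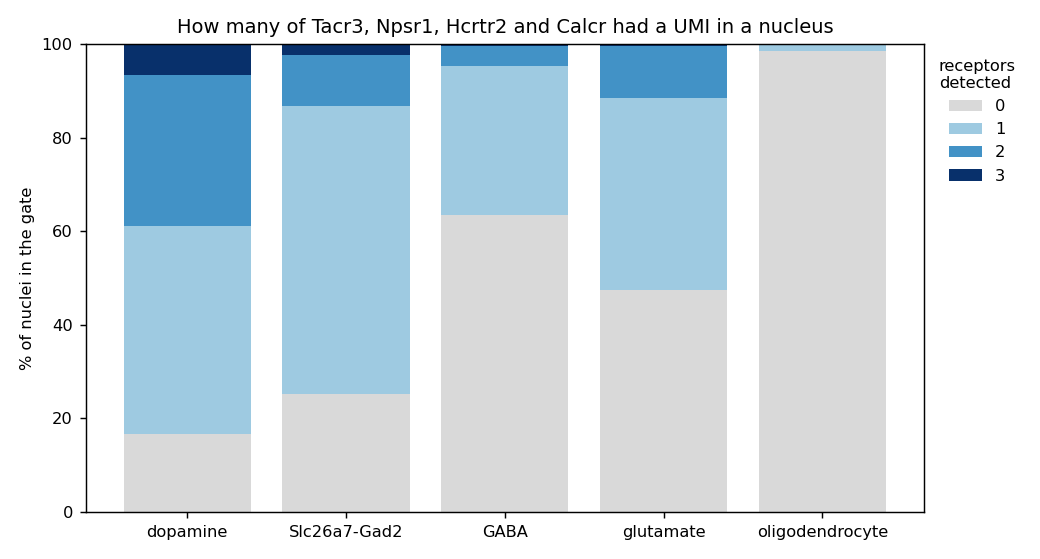
Percent of nuclei (vertical axis) with UMIs of 0, 1, 2 or 3 of the receptors Tacr3, Npsr1, Hcrtr2 and Calcr in 5 gates (horizontal axis), unthinned. The share with none is 16.7% in the dopamine gate and 98.4% in the oligodendrocyte gate, and no nucleus had all 4.

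The libraries allow a comparison of the sexes with 2 pools on each side. No receptor was called by edgeR in the dopamine, GABA, glutamate, astrocyte or oligodendrocyte gates or in all kept nuclei, where 0.0627%, 0.0897%, 0.0493%, 0.0836%, 0.0448% and 0.0284% of all genes were called. Unadjusted p-values were under 0.05 for Tacr3, Calcr and Insr in the dopamine gate, for Tacr3 and Calcr in the GABA gate, for Calcr in the glutamate gate and for Tacr3 in all kept nuclei. DESeq2 called 0 in each as well. Tacr3 was higher in females by 0.46 ± 0.16 in the dopamine gate (edgeR log2 fold change, adjusted p = 0.933) and by 0.53 ± 0.16 in the GABA gate (adjusted p = 0.608). Both females stood above both males in these 2 gates, as the levels above show.

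Calcr was lower in females in the dopamine gate (-0.86 ± 0.25, adjusted p = 0.654, and -1.09 without male 2) and in the glutamate gate (-1.02 ± 0.21, adjusted p = 0.810), where both males stood above both females. In the GABA gate it was -2.12 ± 0.66 (adjusted p = 0.608) and turned to 0.60 without male 1. It was -1.77 to -2.90 without female 1, female 2 or male 2. Each fit without a library leaves 1 library in 1 sex. In the Slc26a7-Gad2 gate both females stood above both males, the opposite direction. A test of all gate by sex terms, added after these values were seen, called Calcr (edgeR adjusted p = 0.0203) among 0.274% of all genes. Its F was 5.88 there, and with 1 library left out 3.66 (female 2), 4.60 (male 1), 8.09 (female 1) and 15.4 (male 2). Those fits also leave 1 library in 1 sex, so their p-values are not given.

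Over the 32 sums of gate and library, the genes whose level ran most like each receptor were listed by Pearson correlation of log2(CPM + 1), as a description. These sums share libraries, gates and depth. Ntsr2 ran with Cd38 (r = 0.961) and Hey2 (0.960), Tacr3 with AABR07008788.1 (0.937), Adamts15 (0.934) and the prolactin receptor gene Prlr (0.931), and Npsr1 with Npffr2 (0.947), Wnt2 and Ebf3 (both 0.928). Hcrtr2 ran with Nrsn2 (0.965), Unc5d and Mgat4d (both 0.959), Crhr1 with Tmem132d (0.945) and Qpct (0.934), and Calcr with Phf6 (0.945), Klhl1 and Foxp2 (both 0.938). The highest value for Insr was 0.667, with Dthd1.

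Of 48 related peptide and hormone receptors, 45 were found by symbol and 33 were tested. The dopamine gate was higher than the GABA gate for 6 and lower for 14, where 11.2% of all genes were higher and 13.8% lower, with a median log2 fold change of -0.45 against -0.04 over all genes. Gipr, the receptor of a gut hormone that raises insulin release, was at 82.8 CPM in the dopamine gate (78.3 to 85.2) and 3.11 in the GABA gate, a difference of 4.64 ± 0.27 (edgeR adjusted p = 2.27e-20). Grpr, the gastrin releasing peptide receptor, was at 6.80 and 0.712 CPM (3.18 ± 0.62), and Npffr2, a neuropeptide FF receptor, at 18.0 and 2.76 CPM (2.73 ± 0.37). Crhr2, Sstr3, Glp1r and Galr1, receptors of urocortins, somatostatin, glucagon-like peptide and galanin, had no UMI in the dopamine gate. Against the level of 3 UMIs over that gate the GABA gate was at least 7.33-fold higher for Crhr2, 6.89-fold for Sstr3, 4.16-fold for Glp1r and 2.62-fold for Galr1. With all genes at 0 in a gate set at such bounds, the list's median was -0.45.

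Against the glutamate gate 6 of the 33 were higher and 12 lower (9.14% and 11.9% over all genes), with a median of -0.35 against -0.05 over all genes. Gipr (11.4 CPM there) differed by 2.84 ± 0.21 and Grpr (1.21 CPM) by 2.43 ± 0.53. The glutamate gate was at least 4.49-fold above the dopamine floor for Galr1, 3.89-fold for Sstr3 and 3.07-fold for Crhr2, and the median with such bounds was -0.32. Among astrocytes and the other glia, 9 of the 33 were higher and 3 lower (29.5% and 22.1% over all genes), with a median of 0.40 against 0.04. Adcyap1r1, the PACAP receptor, stood at 212 CPM in astrocytes (4.73 ± 0.13), the estrogen receptor gene Esr1 at 138 CPM (4.04 ± 0.14) and Vipr2 at 18.2 CPM (3.96 ± 0.51). Calcrl, a relative of Calcr, was at 6.72 CPM in astrocytes against 1006 in precursors and 371 in microglia (-4.98 ± 0.20), and Avpr1a at 0.157 CPM (-3.52 ± 1.11).

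Of 19 ligand genes of the receptors, 18 were found and 7 tested. Against both the GABA and the glutamate gate 1 was higher and 1 lower in the dopamine gate, a share near the 25% and 21% called over all genes. The lower one was Tac1, the precursor of substance P, at 5.04 CPM in the dopamine, 173 in the GABA and 285 in the glutamate gate (-5.08 ± 0.39 and -5.81 ± 0.36). The higher one, named here for its count, was Nts, the neurotensin gene, at 85.0 CPM in the dopamine gate, with a range of 31.1 to 164 over libraries, and at 41.1 and 37.8 CPM in the GABA and glutamate gates (1.03 ± 0.19 and 1.15 ± 0.19). Nps and Tac3, the genes of neuropeptide S and neurokinin B, had no UMI in any gate.

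Of 18 partner and signalling genes, 17 were found, and 18 features were tested because Gnas has 2. The dopamine gate was higher than the GABA gate for 8 and lower for 4, where 11.2% of all genes were higher and 13.8% lower (median 0.48, and -0.04 over all genes). It was higher than the glutamate gate for 8 and lower for 3, against 9.14% and 11.9% of all genes (median 0.35, and -0.05 over all genes). Trpc6, a cation channel opened downstream of phospholipase C, was at 135 CPM in the dopamine gate, 19.4 in the GABA gate and 12.4 in the glutamate gate (2.86 ± 0.17 and 3.46 ± 0.17). Trpc6 was far higher in microglia, at 1191 CPM, and had no UMI in astrocytes. Crhbp, which encodes the binding protein of corticotropin releasing hormone, was at 35.7 CPM in the dopamine and 4.60 in the glutamate gate (2.97 ± 0.28). In astrocytes 6 features were higher than in the other glia and 5 lower, where 51.6% of all genes were called. Plcb1, a phospholipase C gene downstream of Gq, was at 1420 CPM (6.93 ± 0.12), and Grb14, an adaptor that binds the insulin receptor, at 2.57 CPM against 203 in oligodendrocytes and 188 in precursors (-3.27 ± 1.22).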

How the data were processed

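Single-nucleus RNA was measured in 4 libraries with a 3′ droplet assay (10x, version 3 chemistry, per the labels' protocols). The values are raw UMI counts per gene and barcode, as the authors deposited them. Per the submitters' processing notes Cell Ranger and the build rn6 were used, and the file headers name software version 3.0.2. The treatment of intron reads is not stated there.

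Of the barcodes, 6 were removed for fewer than 200 genes or more than 5% of UMIs from mitochondrial genes, as were the top doublet scores of Scrublet (scanpy 1.11.5), at 0.8% per 1000 barcodes (980 nuclei, where the caller's own threshold gave 462). Gates needed 2 UMIs of each neuron gene or of Pdgfra, or 1 UMI of each gene of the other glial pairs. A nucleus in several neuron gates went to the first of dopamine, Slc26a7-Gad2, GABA and glutamate. Left out were 135 nuclei that met a neuron and a glial gate, or more than 1 glial gate. Counts were summed per gate and library and tested over all genes with edgeR 4.0.16 (R 4.3.3), quasi-likelihood, TMM, filter minimum 3 counts, library as a block for gates and no block for sex, and Benjamini-Hochberg adjustment with a threshold of 0.05. Libraries are pools of animals, so the p-values for sex measure the spread between pools, with 2 pools per sex. For gates, the sums of all gates and libraries were fitted together, and the block took out differences between pools shared by the gates. The p-values for gates therefore measure the spread left among these sums, pooled over all gates, and not the spread between pools. CPM scale each sum to 1000000 UMIs. Intervals and floors of 3 counts cover counting error only.

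A pair of receptor and gate was judged where it had at least 10 UMIs and, outside the oligodendrocyte gate, exceeded that gate's thinned share in at least 3 libraries, which held for 32 of 80 pairs. The 32 include oligodendrocyte pairs, judged by UMIs alone. Insr missed the rule in 4 gates (dopamine, Slc26a7-Gad2, GABA and precursor). It had 250 UMIs in the dopamine gate, so for Insr the rule does not measure detection. Thinned shares are the hypergeometric expectation for 2000 UMIs per nucleus. Tested on simulated counts for dopamine minus GABA (14650 genes, 200 changed), the fit recovered 93.3% of changes of log2 1 and 100% of log2 2. For the sexes in the GABA gate it recovered 73.7% and 99.0%. The simulation set a dispersion of 0.02, gave the libraries of a gate the same mean and changed only well counted genes. These rates therefore do not carry over to sparse receptors or to those uneven between libraries, such as Calcr. The receptors and gene lists were chosen with earlier results of these data known. The genes named from the lists were the 4 with the largest called change in each direction per comparison over all lists. DESeq2 1.42.0, other filters, gates, scalings and left-out libraries were tried as alternatives. Coordinates come only from the RefSeq promoter table (GRCr8), which is another build than that of the counts. The marker list for GABA neurons is not reported here in full.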

Additional observations from a re-analysis of the deposited data

Results flagged for a closer look

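In 36 groups of 4 libraries, each 1 receptor in 1 gate, a library was marked where its gap to the next exceeded Dixon's critical share of the range for 4 values. Chance marks about 1 in 20 such groups. Calcr in the GABA gate stood at 111 CPM in male 1, far above the other libraries. Crhr1 in the dopamine gate stood at 23.5 CPM in female 2, far above the others. Npsr1 in the glutamate gate was low in female 1, at 29.6 CPM. Hcrtr2 in the oligodendrocyte gate was high in female 1, at 2.21 CPM, which is 12 UMIs. An edgeR test of the gate by sex terms called Calcr (adjusted p = 0.0203). It was added after the Calcr values were seen, so it is no independent test of them. Single libraries weighed in it. Male 1 gave 311 of the 399 Calcr UMIs of the GABA gate, and female 2 was the highest library in the Slc26a7-Gad2 gate. The F of the gate by sex test fell from 5.88 to 3.66 without female 2, where 1 female library was left. The cause of these values was not tested.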

How the results depend on the processing

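Of counts of called receptors, judged pairs and splits, 193 values under alternatives stayed within 1.5 times the value reported and 13 did not. Of thinned shares, 263 moved by less than 1 SD between libraries and 96 by more. Of the log2 fold changes between gates, 485 kept direction and side of the threshold, 33 lost a call, 7 gained one and 1 changed sign. Only changes with an unadjusted edgeR p under 0.05 and an SE under 2 in the main fit were counted there. Of 766 values of other changes, between gates or sexes and with the main fit included, 57 had another sign than the main value. DESeq2 called 2 receptors for dopamine minus GABA, and 3 for Slc26a7-Gad2 minus glutamate, where lower gates also left 3. With no replicate block astrocytes against other glia gave 1. With no filter on low counts Calcr was called between the sexes, so that 1 receptor passed in the GABA gate and 1 in the glutamate gate. Calcr changed sign without male 1 for GABA minus glutamate (-0.64, and up to 0.94 without another library) and for female minus male in the GABA gate (0.60, and down to -2.90 without another library). Ntsr2 in neurons against glia lost its call without female 1 (-1.92). The causes were not tested.

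With 1 library left out, the receptors called were 3 to 4 for dopamine minus GABA, 2 to 3 for dopamine minus glutamate, 3 to 4 for dopamine minus Slc26a7-Gad2, 2 to 4 for Slc26a7-Gad2 minus GABA, 4 to 5 for Slc26a7-Gad2 minus glutamate, 3 to 3 for GABA minus glutamate, 6 to 7 for neurons against glia and 2 to 2 for astrocytes. They were 0 to 1 for the sexes in the dopamine gate and in the GABA gate, 0 to 0 in the other sex comparisons and 0 to 1 for gate by sex. Judged pairs were 32 to 35, and splits with 1 direction 39 to 44, where 1 direction needs fewer libraries.

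The replicate numbers of the labels were tried as a replicate block for the sexes. Same-numbered libraries correlated at 0.266 over 15559 genes, but with 2 numbers and no shared batch in the labels this does not pair them. The block called 1 receptor in the glutamate gate, Calcr (-1.04, adjusted p = 0.0463). Over all genes it moved the calls from 6 to 920 in oligodendrocytes, 10 to 95 in astrocytes, 12 to 33 in GABA, 7 to 16 in dopamine, 7 to 27 in glutamate and 5 to 8 in all kept nuclei. Without a filter the sex calls were 404, 32, 96, 22 and 44 in the first 5 of these. DESeq2 gave 34 in oligodendrocytes, 6 in astrocytes and 16 in all kept nuclei. Without any 1 library only 1 is left in 1 sex, so sex calls over all genes are not given there. GABA minus glutamate called 1626 genes, and 990 with no replicate block.

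Without nuclei of several neuron gates, male 1 kept 4 nuclei in the Slc26a7-Gad2 gate, and its comparisons gave no value. Ntsr1, Mc4r and Hcrtr1 had few UMIs, and the Slc26a7-Gad2 gate holds 11 to 28 nuclei per library.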
